A study of Mus musculus with 12 samples.

Results

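Genes of the capillary endothelium and of angiogenic signalling were examined in white gastrocnemius muscle of mice lacking the AMPK gamma3 subunit. The 10 genes are Kdr, Flt1, Tie1, Tek, Pecam1, Cdh5, Emcn, Esam, Egfl7 and Vegfa. They were chosen by name, with earlier results of these data known. On the array they are read by 17 probe sets that the platform annotation assigns to a single gene, out of 22626 probe sets tested and 12393 genes measured. A probe set is a group of short probes that read 1 stretch of transcript. All 10 genes were measured, and no filter on low values was applied.

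Total RNA came from the white portion of the gastrocnemius, a calf muscle region made mostly of fast fibres, and was hybridised to 12 Affymetrix MOE430A arrays. Of these arrays, 6 came from AMPK gamma3 knock-out mice and 6 from wild type littermates, and the design text calls the samples of each genotype biological replicates. All mice of both genotypes were males labelled strain C57BL/6 and generation F7, were 14 weeks old and were fasted overnight. AMPK is the energy-sensing kinase of the cell, and gamma3 is a regulatory subunit found mainly in fast glycolytic muscle. The labels name no Cre driver for the knockout, so the cells that lack the gene besides muscle fibres are not given in the sources used here. By the hybridisation times in the array records the arrays fell into 3 groups, called wash runs here. Every run took 4 arrays, 2 per genotype. No probe set in the annotation used here names Prkag3, the targeted gene, so the labels were not checked against its RNA, and the genotype noted in the array records matched the label on 12 of 12 arrays. Genes of fast fibres marked the tissue: the fast myosin gene Myh4 and the fast actinin gene Actn3 were brighter than 99.9% and 99.97% of probe sets.

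Capillaries run along muscle fibres, and slow oxidative fibres are usually supplied by more of them than fast glycolytic fibres. Muscle fibres secrete VEGF-A, encoded by Vegfa, which acts on endothelial cells through the receptor tyrosine kinases KDR, the main signalling receptor, and FLT1, which also acts as a decoy. The angiopoietins act through TEK, to which the related receptor TIE1 is coupled. The coactivator encoded by Ppargc1a is known to induce Vegfa in muscle, and AMPK is known to act upstream of it. In a piece of muscle, fewer endothelial cells and less RNA per endothelial cell cannot be told apart.

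The promoters of Vegfa and of its receptor genes Kdr and Flt1 are shown because Vegfa and Kdr had the largest genotype differences among the 10 genes and Flt1 is the other VEGF-A receptor gene. The sequences are RefSeq windows of GRCm38.p6, from 250 bases before to 50 bases after a gene start, 5′ to 3′ on the gene's strand. For Vegfa the window is chr17:46032328-46032627, for Kdr chr5:75978406-75978705 and for Flt1 chr5:147725962-147726261, each on the minus strand. Capitals mark matches to GGGCGG, the GC box, or to AGGAAG, an ETS motif, on either strand.
Vegfa: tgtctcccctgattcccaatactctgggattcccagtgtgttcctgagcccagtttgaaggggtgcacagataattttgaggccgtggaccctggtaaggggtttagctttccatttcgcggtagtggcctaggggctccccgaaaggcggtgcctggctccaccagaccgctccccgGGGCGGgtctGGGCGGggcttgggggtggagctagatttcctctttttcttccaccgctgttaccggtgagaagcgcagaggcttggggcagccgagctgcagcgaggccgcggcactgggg
Kdr: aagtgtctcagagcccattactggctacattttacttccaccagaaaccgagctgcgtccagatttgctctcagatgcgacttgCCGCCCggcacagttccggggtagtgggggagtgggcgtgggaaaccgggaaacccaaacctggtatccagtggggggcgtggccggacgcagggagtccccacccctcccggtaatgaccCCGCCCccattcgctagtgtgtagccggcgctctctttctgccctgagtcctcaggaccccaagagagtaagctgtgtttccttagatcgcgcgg
Flt1: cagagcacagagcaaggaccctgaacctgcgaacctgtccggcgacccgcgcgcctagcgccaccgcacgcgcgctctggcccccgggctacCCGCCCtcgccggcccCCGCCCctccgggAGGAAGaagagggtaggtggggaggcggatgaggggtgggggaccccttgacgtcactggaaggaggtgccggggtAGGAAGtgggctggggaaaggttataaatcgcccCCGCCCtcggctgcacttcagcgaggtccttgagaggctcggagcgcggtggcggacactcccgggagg
The Vegfa and Kdr windows each held 2 GC boxes and no ETS match, whereas the Flt1 window held 3 GC boxes and 2 ETS matches. Of 32851 promoter windows of the same length, 35.7% held a GC box and 35.4% an ETS match. The HIF core ACGTG, found in 19.6% of all windows, and the ERR motif AAGGTCA, found in 4.72%, were not among the letters of these 3 windows, both strands searched. A second listed Vegfa start had 1 match to ACGTG. Its window, chr17:46025114-46025413, lies downstream of the first on the minus strand, and whether this start is used in muscle was not examined. Promoter rows were found for 7 of the 10 genes, and a match is a description of the letters only.

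Vegfa had the lowest level in knockout relative to wild type among the 10 genes, followed by Kdr, and neither passed the test over all probe sets. On the log2 scale of intensity, the brightest Vegfa probe set had a lowest value of 7.73, a median of 7.88 and a highest value of 8.04 in the 6 knockout arrays, against 7.97, 8.08 and 8.44 in the 6 wild type arrays. All 6 knockout arrays lay below the wild type median, and the highest of them lay above 2 wild type arrays. Vegfa averaged 7.88 ± 0.109 in knockout and 8.14 ± 0.174 in wild type (SD, n = 6 each). The difference was -0.26 ± 0.0749 (SE; 95% interval -0.42 to -0.10), or -16.6% on the linear scale. It ranked 98 of 22626 probe sets by limma p, and its adjusted p of 0.656 (unadjusted 0.00285) did not pass 0.05.

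The second Vegfa probe set, which is dimmer, gave knockout values of 7.31, 7.59 and 7.72 (lowest, median and highest), against 7.53, 7.77 and 7.97 in wild type. Again all 6 knockout arrays were below the wild type median. The difference at this probe set was -0.19 ± 0.0757 (limma, adjusted p = 0.801, unadjusted p = 0.0256). On the linear scale the 2 probe sets gave -16.6% and -12.1% in knockout, and both unadjusted 95% intervals lay below 0.

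Kdr was read by 1 probe set. Its lowest, median and highest log2 intensities were 7.77, 8.08 and 8.14 in knockout and 7.95, 8.26 and 8.54 in wild type. Every knockout array lay below the wild type median, and the lowest 2 wild type arrays lay within the knockout range. The means were 8.03 ± 0.141 in knockout and 8.25 ± 0.233 in wild type (SD, n = 6 each), a difference of -0.22 ± 0.0937 (95% interval -0.42 to -0.02), or -14.01% on the linear scale. The limma adjusted p was 0.812 (unadjusted 0.0328).

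**Figure D1:**
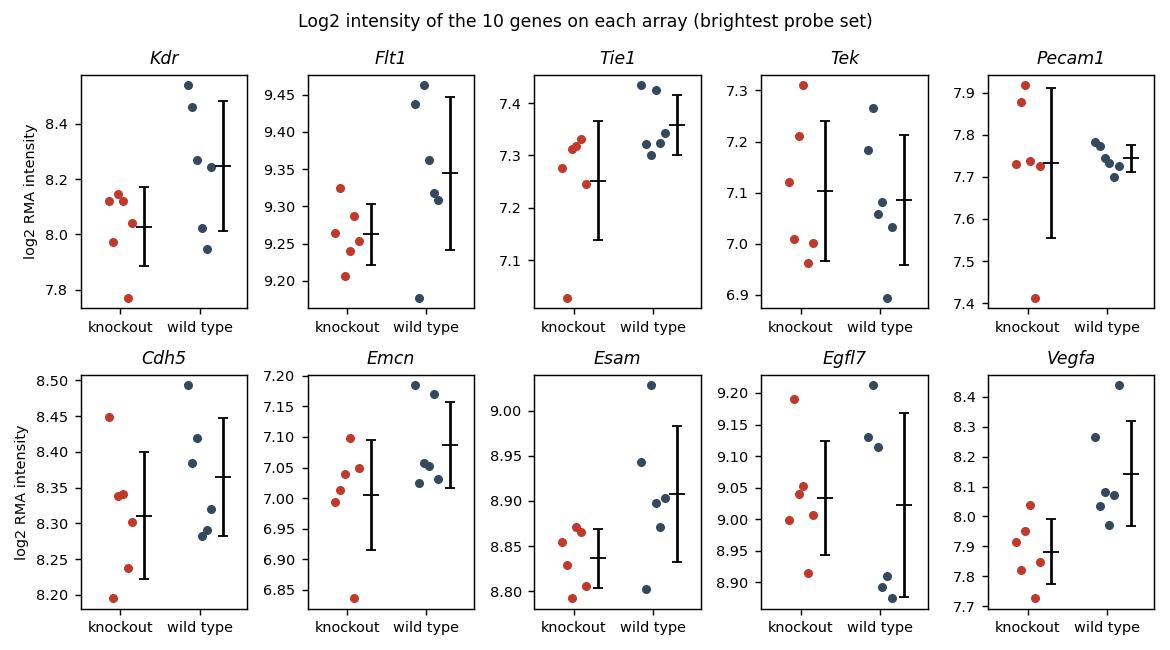
Log2 RMA intensity of each of the 10 genes at its brightest probe set (vertical axis, a separate range in each panel) for 6 knockout and 6 wild type arrays; points are arrays, and the black mark beside them is the mean with its SD. Knockout arrays of Vegfa reach 8.04 and those of Kdr 8.14, whereas wild type arrays reach 8.44 and 8.54, and the genotypes overlap in every panel.

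The other VEGF-A receptor gene, Flt1, differed less. Its brightest probe set had 9.21, 9.26 and 9.32 in knockout (lowest, median and highest) and 9.18, 9.34 and 9.46 in wild type, with all 6 knockout arrays below the wild type median but above the lowest wild type array. The difference was -0.08 ± 0.0516 (limma, adjusted p = 0.896), and the 2 dimmer Flt1 probe sets gave -0.03 ± 0.0594 and -0.09 ± 0.0767 (adjusted p = 0.979 and 0.923). The 3 Flt1 intervals ran from -0.25 to 0.10 in all, so that a difference of the size of Kdr's was outside the interval of the 2 brighter probe sets and inside that of the dimmest.

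Among the angiopoietin receptor genes, Tie1 was lower in knockout and Tek nearly level, and neither passed. Tie1 had 7.03, 7.29 and 7.33 in knockout and 7.30, 7.33 and 7.43 in wild type (lowest, median and highest), a difference of -0.11 ± 0.0552 (limma, adjusted p = 0.858). All 6 knockout arrays were below the wild type median. The knockout array of replicate 2 stood apart at 7.03, and without it the difference was -0.06. Tek, the receptor that binds angiopoietins, had 6.96, 7.07 and 7.31 in knockout and 6.89, 7.07 and 7.26 in wild type. Its medians were alike and its difference was 0.02 ± 0.0701 (95% interval -0.13 to 0.17, limma adjusted p = 0.989).

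The adhesion and junction genes of endothelial cells lay close together in the 2 genotypes. Esam, an adhesion molecule of endothelial tight junctions, had 8.79, 8.84 and 8.87 in knockout and 8.80, 8.90 and 9.03 in wild type, a difference of -0.07 ± 0.046 (limma, adjusted p = 0.897), with all 6 knockout arrays below the wild type median. Emcn, the sialomucin endomucin of capillary and venous endothelium, had 6.84, 7.03 and 7.10 in knockout and 7.03, 7.06 and 7.18 in wild type (difference -0.08 ± 0.0524, adjusted p = 0.897). Cdh5, the VE-cadherin of adherens junctions, had 8.20, 8.32 and 8.45 in knockout and 8.28, 8.35 and 8.49 in wild type (difference -0.05 ± 0.0538, adjusted p = 0.945), and its dimmer probe set gave -0.03 ± 0.0552. For both of these genes 5 of 6 knockout arrays lay below the wild type median, with overlap of the genotypes.

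Pecam1, the adhesion molecule CD31 used to stain capillaries, was equal in the medians, 7.73 in knockout and 7.74 in wild type, with a difference of -0.01 ± 0.0682 (limma, adjusted p = 0.994). Its spread differed, with a knockout range of 7.41 to 7.92 around a wild type range of 7.70 to 7.78. Egfl7, a protein that endothelial cells secrete into their matrix, had 8.91, 9.02 and 9.19 in knockout and 8.87, 9.01 and 9.21 in wild type, a difference of 0.01 ± 0.0661 (adjusted p = 0.993). Its 3 dimmer probe sets gave -0.03, 0.02 and -0.06. Of the 9 genes other than Vegfa, Kdr alone had an unadjusted 95% interval that did not include 0 at its brightest probe set.

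Over the 10 genes, represented by their brightest probe sets, 8 were lower and 2 higher in knockout, and 14 of the 17 probe sets were lower. The median difference was -0.08, beside a median of -0.00 over 12393 genes, of which 52.6% were lower. No member passed an adjusted p of 0.05 with limma, and 3 of 22626 probe sets (0.0133%) passed anywhere, all lower. At an unadjusted p below 0.05, 3 member probe sets were lower (both of Vegfa and that of Kdr) and none higher, where 2.69% of all probe sets were lower and 3.35% higher at that level. The genotypes overlapped at all 17 probe sets, and 0.38% of all probe sets did not overlap.

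**Figure D2:**
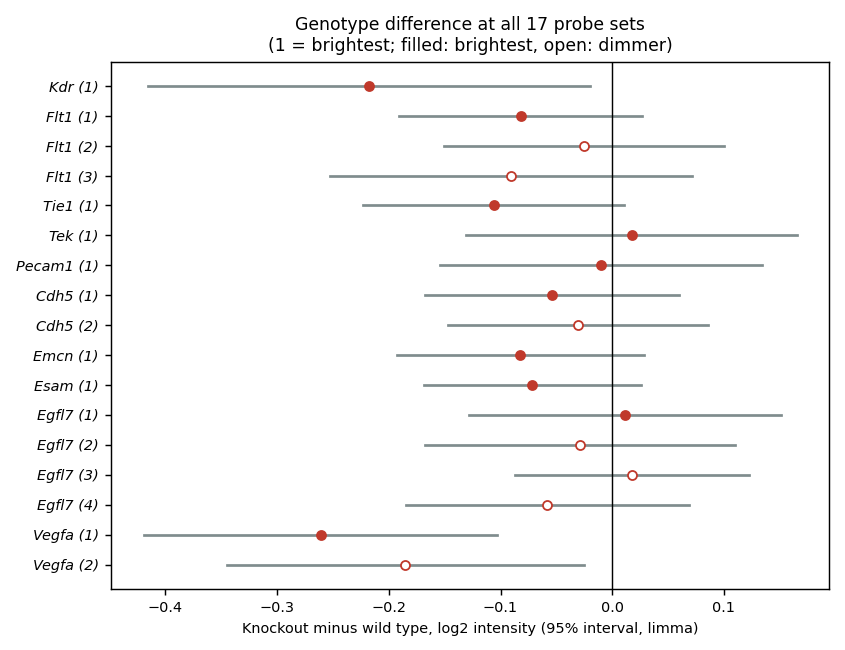
Knockout minus wild type difference in log2 RMA intensity (horizontal axis) at all 17 probe sets of the 10 genes, numbered from the brightest; points are limma estimates over 6 against 6 arrays and lines their unadjusted 95% intervals. The intervals of both Vegfa probe sets and of Kdr lie below 0, and the other 14 include 0.

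The differences were also read within the 3 wash runs, each with 2 arrays per genotype. Kdr gave -0.23, -0.23 and -0.19 in runs 1, 2 and 3, Esam -0.08, -0.08 and -0.05, Flt1 -0.11, -0.10 and -0.04, and Cdh5 -0.07, -0.06 and -0.04. Vegfa gave -0.25, -0.06 and -0.47 in the same runs. Kdr, Esam, Flt1, Cdh5 and Vegfa, 5 of the 10 genes, were thus lower in knockout in 3 of 3 runs, Vegfa with unequal sizes. Of all 12393 genes 13.8% were lower in every run and 12.8% higher in every run. Blocked on wash run, limma gave an adjusted p of 0.629 for Vegfa and 0.724 for Kdr. Tie1 (-0.28, 0.00 and -0.05), Emcn (-0.12, 0.03 and -0.16), Tek (-0.07, 0.10 and 0.02), Pecam1 (0.05, 0.07 and -0.14) and Egfl7 (0.08, -0.12 and 0.07) had both signs.

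The second question was whether these genes vary with Ppargc1a and with the slow fibre content of the piece. At its brightest probe set Ppargc1a had 7.54, 7.70 and 7.89 in knockout (lowest, median and highest) and 7.72, 8.01 and 8.18 in wild type, a difference of -0.29 ± 0.0758 (limma, adjusted p = 0.564). Of the 10 genes Vegfa had the highest Pearson r with it over the 12 arrays, though not the highest Spearman rho, with r = 0.78 (permutation p = 0.00206) and Spearman rho = 0.69 (permutation p = 0.0161). Adjusted over the 20 relations of the 10 genes with Ppargc1a and with slow fibre level, the p was 0.0412 for r and 0.107 for rho. Without the 2 arrays farthest from the Ppargc1a median, wild type replicates 1 and 6, which had the highest levels of both genes, r was 0.50. Within genotypes r was 0.12 in knockout (n = 6, exact permutation p = 0.831) and 0.73 in wild type (n = 6, exact permutation p = 0.103).

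Both genes were lower in knockout, and the relation was smaller within genotype. With both genes centred within genotype, r was 0.54, and in a limma fit over all probe sets with genotype as a term Vegfa had a slope of 0.54 ± 0.253 per log2 unit of Ppargc1a (unadjusted p = 0.0503, adjusted p = 0.758). In that fit 0% of 22621 probe sets passed, and 1 member probe set, of Egfl7, was below an unadjusted p of 0.05, where 2.77% of all probe sets had a positive and 3.78% a negative slope at that level. The wash runs hold 4 arrays each, too few for a correlation. Centred within wash runs only, which leaves the genotype difference of both genes in, r was 0.85. The wash run differences of Ppargc1a were -0.29, -0.10 and -0.47. Those of Vegfa, from the same arrays, were -0.25, -0.06 and -0.47. Without wild type replicate 6 the slope was 0.28 and the pooled r 0.68, with an adjusted p of 0.237.

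The relation depended on which probe sets were read. The second-brightest Ppargc1a probe set, whose own difference was -0.24 ± 0.0877, had r = 0.84 with the brighter and r = 0.72 with the dimmer Vegfa probe set (rho = 0.66 and 0.64; permutation p = 0.00112 and 0.00906 for r, adjusted 0.0103 and 0.0302 over the 10 probe set pairs). Without the 2 arrays farthest from its median these were 0.54 and 0.55. The dimmer Vegfa probe set had r = 0.45 with the brightest Ppargc1a probe set (rho = 0.34, permutation p = 0.141), and the remaining 6 pairs, with the 3 dim Ppargc1a probe sets, ranged from -0.19 to 0.33.

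**Figure D3:**
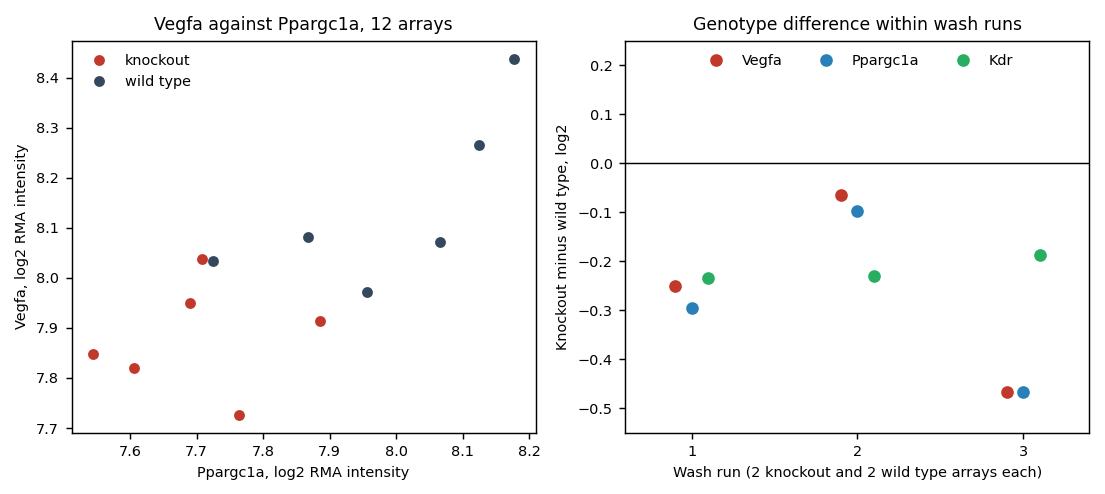
Left, log2 RMA intensity of Vegfa (vertical) against Ppargc1a (horizontal) at their brightest probe sets on 12 arrays, with r = 0.78 over all arrays and r = 0.12 within knockout; each point is an array. Right, knockout minus wild type difference within each wash run of 2 against 2 arrays, where Vegfa and Ppargc1a are at -0.06 and -0.10 in run 2 and both at -0.47 in run 3, while Kdr stays between -0.23 and -0.19.

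Tie1 and Esam had a lower r with Ppargc1a than Vegfa but a higher rho, and the differences between these correlations were not tested. Tie1 had r = 0.62 and rho = 0.76 with it (permutation p = 0.0213 and 0.00638, adjusted 0.213 and 0.0744), and Esam r = 0.58 and rho = 0.75 (permutation p = 0.0439 and 0.00744, adjusted 0.292 and 0.0744). Neither passed after adjustment. Without wild type replicates 1 and 6 their r was 0.56 and 0.51, beside 0.50 for Vegfa, and centred within genotype 0.38 and 0.31. Kdr had r = 0.32 (rho = 0.22, permutation p = 0.315), which turned to -0.09 without those 2 arrays. Egfl7 at its brightest probe set had r = -0.43 (rho = -0.48, permutation p = 0.16) and a slope of -0.47 ± 0.223 with genotype as a term (limma, unadjusted p = 0.049, adjusted p = 0.758). Its 3 dimmer probe sets had slopes of -0.02, -0.27 and -0.01, and the mean of its probe sets one of -0.19. In all, 7 of the 10 genes had a positive and 3 a negative r with Ppargc1a.

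Slow fibre level was the mean of 12 genes of slow fibres, each centred on its average over the arrays. It varied far more than any endothelial gene, with a lowest value of -0.61 and a highest of 0.80 in knockout, against -0.53 and 0.79 in wild type, and with means of -0.15 ± 0.516 and 0.15 ± 0.525 (SD, n = 6 each). Its difference between genotypes was -0.26, 0.36 and -1.02 in the 3 wash runs. The 12 genes did not contribute alike. Myl2 had a range of 2.91 log2 units over the arrays and r = 0.98 with the mean of the other slow fibre genes. Casq2 had a range of 0.44 (r = 0.59) and Tpm3 one of 0.19 (r = 0.38). No member passed a test against slow fibre level. The r of the 10 genes with slow fibre level ran from -0.42 (Cdh5) to 0.38 (Emcn), 5 of them positive (rho = -0.36 and 0.31 for Cdh5 and Emcn), with adjusted permutation p of 0.512 or more for r.

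In the limma fit with genotype as a term, the slopes of the 10 genes ran from -0.16 to 0.08 log2 units per log2 unit of slow fibre level. None passed, and none of their 17 probe sets was below an unadjusted p of 0.05 (smallest adjusted p = 0.771). Over all 22605 probe sets 2 passed (0.00885%), and 3.3% had a positive and 3.38% a negative slope at an unadjusted p below 0.05. Kdr had a slope of -0.16 ± 0.0926 (unadjusted p = 0.0959) and Cdh5 one of -0.10 ± 0.053 (unadjusted p = 0.0885), both negative. Vegfa had a slope of 0.01 ± 0.0809. Slow fibre level and Ppargc1a themselves had r = 0.38 (rho = 0.38, permutation p = 0.222) over the 12 arrays, and 0.74 without the 2 arrays farthest from the median slow fibre level, knockout replicate 2 and wild type replicate 4.

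With slow fibre level as a term, the genotype difference was -0.26 ± 0.0809 for Vegfa, -0.27 ± 0.0925 for Kdr and -0.12 ± 0.0578 for Tie1 (limma, unadjusted p = 0.0055, 0.0104 and 0.0466). The adjusted p was 0.635, 0.646 and 0.729, and none of the 10 genes passed where 0.00884% of probe sets did. At an unadjusted p below 0.05, 3.2% of all probe sets were lower and 3.53% higher in this fit. The values without the term were -0.26, -0.22 and -0.11. Tie1 gave -0.03 in this fit without knockout replicate 2, the array with both the highest slow fibre level and the lowest Tie1 level.

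**Figure D4:**
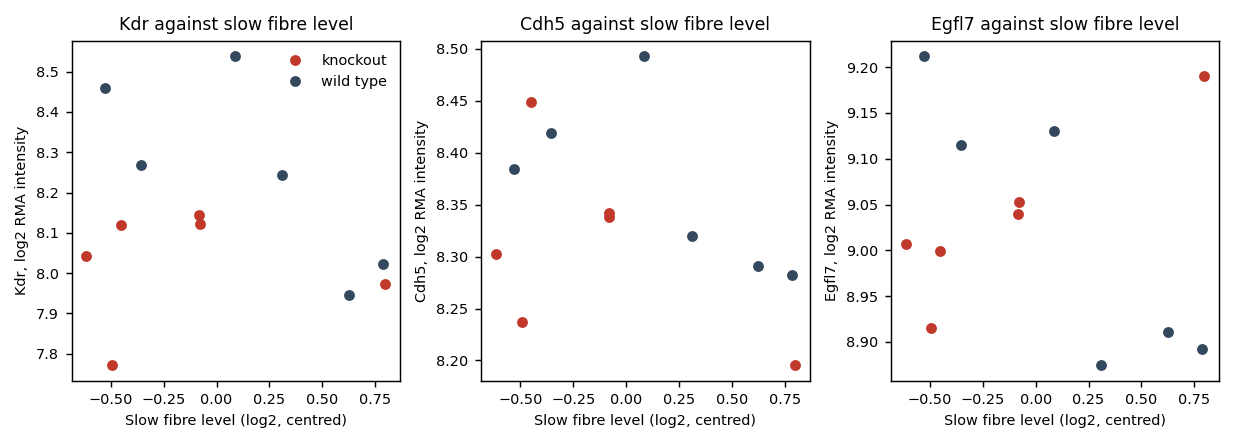
Log2 RMA intensity of Kdr, Cdh5 and Egfl7 (vertical axes) against slow fibre level, the centred mean log2 intensity of 12 slow fibre genes (horizontal axis), with 1 point per array. Over the 12 arrays r is -0.20, -0.42 and -0.21, and Egfl7 has r = 0.92 within knockout and r = -0.89 within wild type.

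The relation of Egfl7 to slow fibre level was compared between the genotypes after these correlations had been seen, and the difference did not pass the test. Within knockout r was 0.92 (n = 6, exact permutation p = 0.00972) and within wild type -0.89 (n = 6, exact permutation p = 0.0319). The slopes were 0.16 ± 0.0691 in knockout and -0.25 ± 0.068 in wild type, and the difference of the slopes was 0.41 ± 0.097 (limma with an interaction term, unadjusted p = 0.000713, adjusted p = 0.0844). In this interaction fit 0.00442% of probe sets passed, while 18.8% were below an unadjusted p of 0.05, so that unadjusted p-values below 0.05 were common. The 3 dimmer Egfl7 probe sets had slope differences of 0.12, 0.15 and 0.00 (adjusted p = 0.658, 0.377 and 0.994). In knockout the high end of slow fibre level is the single array of replicate 2, at 0.80, against -0.08 for the next.

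The 10 genes did not vary as a single block. Over the 45 pairs, r ran from -0.41 (Tie1 with Egfl7) to 0.89 (Flt1 with Esam), with a median of 0.33 and 36 pairs positive. Pairs of other genes were not examined, so no share over the array stands beside these counts. Flt1 and Esam were the 1 pair that passed, with r = 0.89 and rho = 0.81 (permutation p = 0.00012 and 0.00204, adjusted over the 45 pairs 0.0054 and 0.0459). Their r was 0.72 without wild type replicates 1 and 3, 0.94 centred within wash runs and 0.85 centred within genotype. It was 0.35 in knockout and 0.93 in wild type (n = 6 each). Without wild type replicate 3, the highest array for both genes, r was 0.83 with an adjusted p of 0.0742.

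Kdr went with Cdh5 (r = 0.79, rho = 0.83, permutation p = 0.00224 and 0.00143, adjusted 0.0504 and 0.0459), just outside the threshold by r and inside it by rho. Their r was 0.62 without knockout replicate 5 and wild type replicate 1, the lowest and highest Kdr arrays. It was 0.74 centred within wash runs, 0.77 centred within genotype, 0.70 in knockout and 0.87 in wild type. Kdr also had r = 0.62 with Tek and r = 0.67 with Vegfa (rho = 0.69 and 0.66; permutation p = 0.0299 and 0.0181, adjusted 0.336 and 0.271), neither of which passed. By contrast the r of the 2 VEGF-A receptor genes Kdr and Flt1 with each other was 0.16 (rho = -0.03, permutation p = 0.621), and that of Tie1 and Tek 0.25 (rho = 0.08, permutation p = 0.459). Flt1 and Vegfa had r = 0.33 (rho = 0.33, permutation p = 0.302). Centred within genotype, r was 0.78 for Kdr with Tek, 0.50 for Kdr with Vegfa and -0.14 for Kdr with Flt1. It was 0.34 for Tie1 with Tek and -0.04 for Flt1 with Vegfa.

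**Figure D5:**
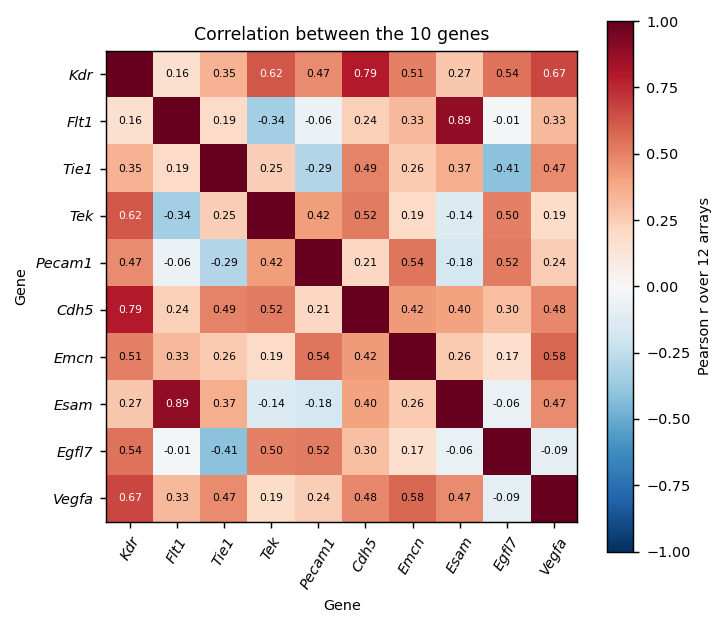
Pearson r over 12 arrays for each pair of the 10 genes at their brightest probe sets (rows and columns are genes; colour from -1 to 1). Flt1 with Esam (0.89) and Kdr with Cdh5 (0.79) are the highest of the 45 pairs, and Tie1 with Egfl7 (-0.41) the lowest. Both genotypes are pooled in each r.

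The endothelial level, the mean of the 9 genes other than Vegfa with each centred over the arrays, was -0.03 ± 0.0598 in knockout and 0.03 ± 0.0693 in wild type (SD, n = 6 each), a difference of -0.07. It lay between -0.14 and 0.03 over knockout arrays and between -0.05 and 0.14 over wild type arrays. Among 10365 other probe sets above the median level that name 1 gene, those most like it over the 12 genotype-centred arrays were of Bcl2l11 (r = 0.94), a death-promoting protein of the BCL2 family, Celf1 (0.92), an RNA-binding protein, and Fscn1 (0.92), an actin-bundling protein. They were followed by 1600014C10Rik (0.89), Cxxc5 (0.89), Gdpd1 (0.89), Laptm5 (0.89) and Asf1b (0.88). For Vegfa they were Ndrg3 (r = 0.86), Nsf (0.82), Rbbp4 (0.81), Fgfr3 (0.80) and Zxdc (0.80). None of these is among the other vascular genes listed below, and r of this size is the top of 10365 values over 12 arrays that reach -0.96 and -0.90 at the other end.

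Other vascular genes were read from 8 lists. Of 12 vascular growth factor and guidance ligand genes 7 were lower in knockout (median -0.02), among them Vegfb, a VEGF family ligand of FLT1, at -0.15 ± 0.0683 and Fgf1 at -0.13 ± 0.0584 (limma, unadjusted p = 0.0443 and 0.0397, adjusted 0.818 and 0.817). Of 13 further vascular receptor genes 9 were lower (median -0.05), with the sphingosine phosphate receptor S1pr1 at -0.10 and the calcitonin receptor-like receptor Calcrl at -0.13. Of 8 Notch pathway genes 5 were lower (median -0.03), with the ligands Jag1 and Jag2 both at 0.07. Of 14 endothelial transcription factor genes 9 were lower (median -0.01), with Fli1 at -0.11 and Tal1 at -0.12. Of 11 genes of hypoxia signalling and Vegfa regulation 5 were lower (median 0.00), with the HIF partner Arnt at -0.16 and the prolyl hydroxylase Egln1 at 0.08. Of 8 angiogenesis inhibitor genes 6 were lower (median -0.04), with Thbs1 at -0.16 and Adamts1 at -0.21. Of 6 genes of capillary fatty acid uptake 5 were lower (median -0.04), with the fatty acid transporter Cd36 at -0.18 and Slc27a3 at -0.06. None of these genes passed over all probe sets.

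A list of other endothelial markers was read in the same way. Of 12 measured, out of 16 listed, 8 were higher and 4 lower (median 0.02), with the adhesion molecule Mcam at 0.12 ± 0.0508 and the junction protein Jam2 at -0.15 ± 0.0569 (limma, unadjusted p = 0.0309 and 0.0207, adjusted 0.81 and 0.783). At an unadjusted p below 0.05, 418 of all 12393 genes were higher in knockout and 354 lower. At that level 3 genes of this list were higher and 1 lower. Besides Mcam, the higher ones were the nitric oxide synthase Nos3 at 0.14 ± 0.0632 and the sialomucin Cd34 at 0.12 ± 0.0537 (limma, unadjusted p = 0.0423 and 0.0419, adjusted 0.818 for both), named after their values were seen. Their mean level, centred as above, ranged from -0.06 to 0.07 in knockout and from -0.09 to 0.08 in wild type.

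Markers of the cells around capillaries and of other cell types were read beside these values. Of 10 pericyte and smooth muscle genes 8 were lower (median -0.02), with a level between -0.08 and 0.06 in knockout and between -0.06 and 0.11 in wild type, and with the potassium channel gene Kcnj8 at -0.15 and Notch3 at -0.08. All 4 measured adipocyte genes, out of 6 listed, were higher (median 0.20; level -0.06 to 0.31 in knockout and -0.42 to 0.14 in wild type), with Adipoq at 0.39 and Cidec at 0.26, and 2 of 3 Schwann cell genes were higher (median 0.18; level -0.04 to 0.21 and -0.20 to -0.02), with Pmp22 at 0.25 and Cnp at 0.18. The macrophage (6 of 9 higher), fibroblast (2 of 6), lymphatic (3 of 4), blood and platelet (2 of 6) and fast fibre genes (7 of 11) had medians of 0.01, -0.04, 0.04, -0.02 and 0.02. Their 2 genes with the smallest p were Cd74 at 0.18 and Cd68 at -0.13 (macrophage), and Pdgfra at 0.15 and Fbln1 at 0.09 (fibroblast). Lyve1 was at 0.13 and Reln at 0.06 (lymphatic), and Alas2 at -0.19 and Ppbp at 0.07 (blood and platelet). The fast fibre genes Myh1 and Tnnt3 were at -0.11 and 0.07. None of these genes passed (limma, adjusted p of 0.707 or more for those named). The part of these cell types in the values of Vegfa and Kdr was not tested.

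Against slow fibre level, none of the 137 list genes tested besides the 10 passed either. The smallest p among them was that of the fast fibre myosin gene Myh2. Its slope was 0.57 ± 0.114 (limma, unadjusted p = 0.000118, adjusted p = 0.42). Some of the smallest p in the vascular lists were those of Sema3a, a guidance ligand (slope -0.15), and Ramp2, an adrenomedullin receptor component (0.20). Fli1 (-0.20) and Thbs2 (0.24) were also among them, as were Lpl (0.23) and Cldn5, the claudin of endothelial tight junctions (-0.35). The limma adjusted p of these genes lay between 0.577 and 0.673. The protein of Lpl is the lipoprotein lipase of capillary walls, and the cells that made its RNA were not examined. All 6 fibroblast genes had positive slopes (median 0.19), as had 8 of 9 macrophage genes (median 0.16), beside medians of -0.03 for the 10 genes and -0.00 over all genes.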

How the data were processed

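Probe set intensities of 12 MOE430A arrays (6 knockout, 6 wild type) were made and deposited by the authors with RMA, per the submitters' processing notes; no RMA version is given here. This method corrects background, gives all arrays nearly the same distribution, which hides a change shared by most transcripts, and shrinks differences of dim probe sets. The deposited intensities are linear (7.47 to 21828, array medians 132.5 to 139.8), and log2 was taken here. The number of arrays limits the precision. Of 22690 probe sets, 64 controls were left out. Cage letter and fluidics module came from the array records, whose genotype note matched the label on 12 of 12 arrays. Wash run was inferred from the hybridisation times in those records, with a gap in time starting a new run.

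Genotype, slow fibre level and Ppargc1a were tested with limma 3.58.1 in R 4.3.3 (lmFit, eBayes, two-sided), with p-values adjusted by Benjamini-Hochberg across every tested probe set, at a threshold of 0.05. Genotype was the only term in its own comparison and a further term in the others. Probe sets of the predictor genes were left out of the tests on them. The fits were also run on simulated data, whose outcome is not given here, so no support is drawn from it. Correlations used two-sided permutation tests (100000 resamples over 12 arrays in numpy 2.4.6, exact within 6). A gene is represented by its brightest probe set. Named genes were the members, from each list the 2 genes with the smallest p for genotype and up to 2 with the smallest p for slow fibre level, and the genes most like the endothelial level or Vegfa. The members and lists (159 of 172 genes measured, 1 through an older symbol) were chosen with earlier results of these data known. Alternatives were median centring, a further quantile normalization, a filter at the median level, another prior variance, array weights, 3 batch blocks, a replicate block, log2(value + 16), probe set means, other predictors and leaving out each array.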

Additional observations from a re-analysis of the deposited data

Results flagged for a closer look

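Of 26 sets of 6 arrays examined (the 10 genes, Ppargc1a, slow fibre level and endothelial level in each genotype), 1 held an array far from the rest: the knockout array of replicate 2 for Tie1, at 7.03 on the log2 scale, where the nearest other knockout array was 7.24. The gap was 0.715 of the range of the 6 arrays, above Dixon's critical value of 0.625. Chance marks about 1 in 20 such sets, so 1 of 26 is no more than chance gives. The same array had the highest slow fibre level (0.80). Without it, the Tie1 difference between knockout and wild type was -0.06 (limma, adjusted p = 0.787), beside -0.11 with it.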

How the results depend on the processing

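No member passed for genotype, for genotype with slow fibre level, for slow fibre level or for Ppargc1a under any of the alternatives run with limma, the 12 fits without 1 array included: the count was 0 in each, and the smallest adjusted p was 0.425, 0.252, 0.131 and 0.273. Of 229 alternative values of the genotype difference over the 10 genes, 214 kept their direction and 15 did not. Vegfa, Kdr, Flt1, Tie1, Cdh5, Emcn and Esam kept theirs in all those run. Without 1 array Vegfa lay between -0.30 and -0.20 and Kdr between -0.28 and -0.16. Pecam1 gave 0.0014 after median centring, 0.000037 with array weights and 0.0092 blocked on fluidics module. Egfl7 gave -0.011 after quantile normalization, -0.0043 with array weights, -0.021 blocked on module and -0.014 as the mean of its probe sets. Without 1 array Pecam1 ranged from -0.047 to 0.054, Egfl7 from -0.020 to 0.049 and Tek from -0.024 to 0.053.

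The slope of Vegfa on Ppargc1a was 0.40 blocked on cage letter, 0.63 on fluidics module, 0.76 on wash run and 0.89 with the replicate block, and 0.30 for the mean of its probe sets. That of Egfl7, -0.47, was -0.27 blocked on cage letter, -0.29 on fluidics module, -0.24 with no genotype term and -0.19 for the mean of its probe sets. Of 259 alternative slopes on Ppargc1a 24, and of 249 on slow fibre level 17, had the other direction. The correlation alternatives were chosen after seeing the data. After a further quantile normalization 0 of the 20 relations passed (Vegfa with Ppargc1a r = 0.78, adjusted p = 0.051) and 2 of the 45 pairs. Without 1 array, 0 to 2 of the 20 relations and 0 to 3 of the 45 pairs passed. The r of Vegfa with Ppargc1a was then 0.68 to 0.82 and did not pass without any 1 of knockout replicates 2, 3, 4 and 6 and wild type replicates 1, 5 and 6, and that of Flt1 with Esam was 0.83 to 0.92. Over all probe sets, array weights called 31 for slow fibre level and 5 for Ppargc1a, against 2 and 0, the other settings called 0 to 3 and 0, and genotype calls ranged from 2 to 4. With slow fibre level as a term, genotype calls ranged from 0 to 3. The cause of these changes was not tested.

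Replicate numbers are shared by the genotypes. The deviations of same-numbered arrays had r from -0.15 to 0.20 over 6 pairs, 2 of them above 0.1. Such low r cannot tell whether the numbers mark litters or another pairing, which is not given in the sources used here. With the replicate block the difference was -0.26 for Vegfa (adjusted p = 0.52) and -0.22 for Kdr (adjusted p = 0.619), 0 members passed, and 2 probe sets passed in all against 3. Emcn has no value under the filter at the median level, which it does not reach.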
